A study of Homo sapiens with 4 samples.

Results

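To explore how the AP-1 transcription factors behaved after the loss of LDB1 (LIM domain-binding protein 1), the transcripts of 10 genes were examined in RNA-seq of leukemia cells. The genes were JUN, JUNB, JUND, FOS, FOSB, FOSL1, FOSL2, ATF3, MAFF and EGR1. They were found by gene name, and each had 1 row among the 28412 genes of the deposited table. The 4 libraries came from cells labelled NB4, a human promyelocytic leukemia line. The control group, written sh-NC, and the LDB1 knockdown group, written sh-LDB1, had 2 libraries each, from cells with a control vector and with an shRNA vector respectively. The labels call the control cells untreated. The study made its knockdown cells with a lentiviral vector and listed 3 LDB1 shRNAs, of which the labels name none. Nothing says whether the replicates were separate cultures, so the p-values measure only the spread between these libraries.

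AP-1 is a pair of basic leucine zipper proteins that binds DNA together. JUN proteins can pair with each other or with a FOS protein, while FOS proteins need a JUN partner. Several of these genes, and EGR1, are immediate early genes, which cells switch on within minutes of a signal without making new protein first. The signal usually arrives through the MAP kinases ERK, JNK and p38. JUND is the member that many resting cells already hold at a high level. In myeloid cells, JUN proteins and EGR1 are known for their part in monocyte development.

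The knockdown and the labelled cell type were checked first. LDB1 gave 135.1 and 120.1 FPKM (fragments per kilobase of gene and unit of depth) in the controls and 10.2 and 9.47 FPKM after the knockdown. The libraries held 14601288 to 16910931 recovered reads. The promyelocytic markers were low in both groups. Of 8 markers, 6 had a value, their summed level was 5.06 to 6.17 FPKM in sh-NC and 10.2 to 12.7 FPKM in sh-LDB1, and ELANE, the neutrophil elastase, was listed at 0 in 3 of the 4 libraries. The 12 erythroid markers, by contrast, summed to 3973 and 4140 FPKM in the controls but 388.0 and 351.6 FPKM after the knockdown. All 11 that were tested were called lower by the rule given below, against 10.3% of all genes tested. Their median log2 difference was -3.20, against -0.08 over all genes tested. Of the 11, 1 passed the filter only through sh-NC, so this count and median are descriptions only. The cells are therefore called here by their label only. The 6 monocyte and macrophage markers with a value summed to 0.324 and 0.387 FPKM in the controls, against 5.71 and 5.74 FPKM after the knockdown. ITGAM, the CD11b chain, carried most of that sum, with 4.89 and 4.94 FPKM in sh-LDB1, and CD14 stayed between 0.108 and 0.350 FPKM. CD68 went the other way, from 0.141 and 0.0620 FPKM in sh-NC to 0 in sh-LDB1, on 5 and 2 reads in sh-NC. ITGAM was the only 1 of these markers tested, and it passed the filter only through sh-LDB1. The 4 lymphoid markers with a value summed to 21.3 and 24.1 FPKM in the controls, against 44.9 and 47.7 FPKM after the knockdown, nearly all of it CD3D. These markers moved together with the genes described here, and their part in the results was not tested. In bulk RNA, fewer cells of a type and less RNA per cell cannot be told apart.

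Promoter sequence is shown for the JUN family members and EGR1 whose 250 bases before the transcription start held a match to a motif tied to immediate early control. The sequences are from RefSeq (GRCh38.p14) and are written 5′ to 3′ on the strand of the gene, with matches in capitals. JUN is read from chr1:58784048-58784297, minus strand, JUND from chr19:18281623-18281872, minus strand, and EGR1 from chr5:138465229-138465478, plus strand.
JUN: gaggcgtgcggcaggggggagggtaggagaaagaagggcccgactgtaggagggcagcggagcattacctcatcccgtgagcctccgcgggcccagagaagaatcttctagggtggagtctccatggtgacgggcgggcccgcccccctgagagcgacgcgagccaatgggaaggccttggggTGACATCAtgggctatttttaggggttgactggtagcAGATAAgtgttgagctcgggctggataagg
JUND: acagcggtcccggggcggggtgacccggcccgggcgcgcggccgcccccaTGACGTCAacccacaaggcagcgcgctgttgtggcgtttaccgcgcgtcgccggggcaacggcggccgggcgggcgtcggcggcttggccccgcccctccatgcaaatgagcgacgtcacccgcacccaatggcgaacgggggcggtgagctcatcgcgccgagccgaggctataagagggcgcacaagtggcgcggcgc
EGR1: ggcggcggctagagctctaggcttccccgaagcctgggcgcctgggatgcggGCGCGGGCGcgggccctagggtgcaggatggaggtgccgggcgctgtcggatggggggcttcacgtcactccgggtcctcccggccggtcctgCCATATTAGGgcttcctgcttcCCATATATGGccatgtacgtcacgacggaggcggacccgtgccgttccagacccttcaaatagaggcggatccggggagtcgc

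In the JUN window the capitals mark TGACATCA, a CRE-like site of the form TGACNTCA that AP-1 and ATF proteins are known to bind, at positions -67 to -60 from the start. They also mark AGATAA, a form of the GATA motif, at -30 to -25. In the JUND window they mark TGACGTCA, at -200 to -193. In the EGR1 window they mark an EGR site, GCGCGGGCG, at -198 to -190, and a pair of CArG boxes, the element of serum response factor, at -105 to -96 and -83 to -74.

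RefSeq windows were at hand for 9 of the 10 genes, 11 windows in all because ATF3 and MAFF had a pair of start sites each. Both strands were searched, and no match overlapped another. A CRE-like site was found in 4 of the 9 genes, JUN, JUND, ATF3 (TGACATCA, -123 to -116 from its first start) and MAFF (TGACGTCA, -54 to -47 from its first start). Of 35116 promoter windows of that length, 6.872% held such a match. This percentage and those below count windows, while the counts for the 9 genes are by gene, with a pair of windows each for ATF3 and MAFF. The CArG box was found only in EGR1 among the 9 genes, against 1.159% of all windows. The EGR site GCGNGGGCG also matched in EGR1 alone, against 8.415%, and AGATAA in JUN alone, against 9.167%. The E-box CAGNTG matched in ATF3 alone, 3 times before its first start, against 42.52%. The AP-1 site TGANTCA, found in 6.573% of all windows, had no match in these 11. A match is a run of letters and does not show that a factor was bound.

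**Figure D1:**
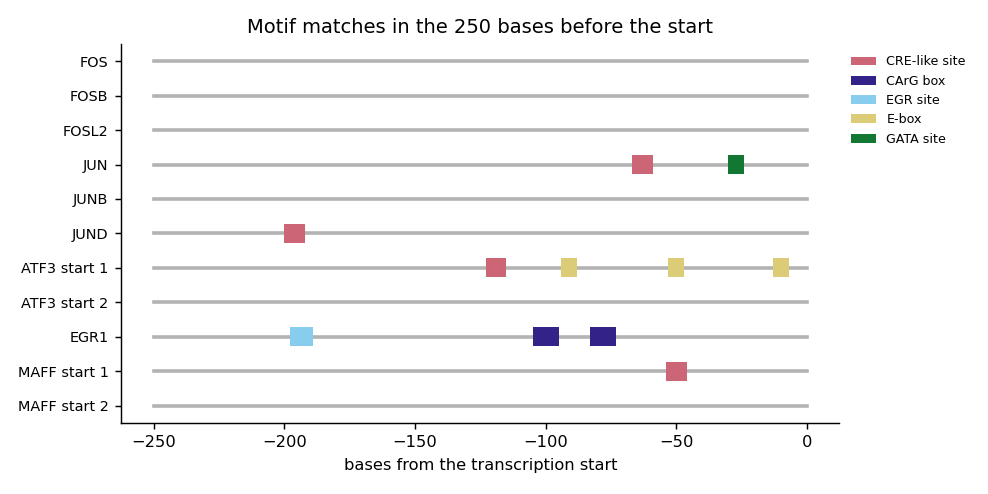
Motif matches in the 250 bases before the transcription start of 9 genes (x axis, bases from the start; 1 line per RefSeq start site, coloured blocks are matches drawn to scale). The CRE-like sites of JUN, JUND, ATF3 and MAFF lie at different distances, and 6 of the 11 windows hold no match to the motifs searched.

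Comparing sh-LDB1 with sh-NC, 5 of the 10 genes were called higher, namely JUN, JUND, FOS, FOSB and FOSL2. A gene was called when its Benjamini-Hochberg adjusted p in limma was below 0.05 and its fold on the log2(FPKM + 1) scale was above 2 or below 0.5. The fit covered 13300 genes, those averaging 1 FPKM or more, and 9.5% of them were called higher by this rule. None of the 10 genes was called lower in this fit, against 10.3% of all genes, although FOSL1 and EGR1 were lower at adjusted p alone. FOSL1 was called lower in some alternative settings, among them pseudocounts of 0.1 and 0.01 and voom on recovered reads. With adjusted p alone, 8 of the 10 were higher, against 29.9% of all genes, and 2 were lower, against 37.4%. The 2 libraries of a group did not overlap those of the other group for 10 of 10 genes, but the same held for 84.6% of all genes tested. The median log2 difference of the 10 genes was 1.04, and that of all genes tested was -0.08. All 10 genes passed the filter on low values, but FOSB only through its level in sh-LDB1. The counts and the median that include it are therefore descriptions only.

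**Figure D2:**
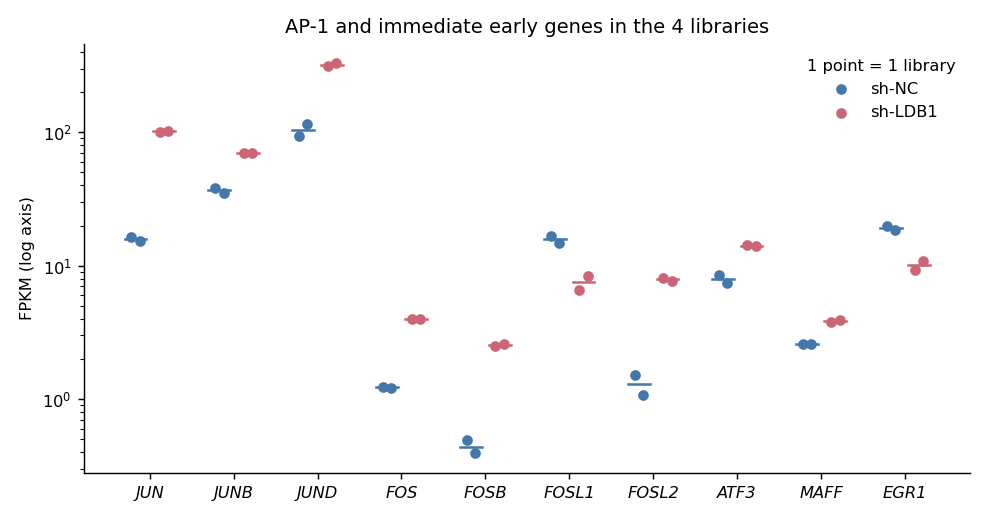
Level of each of the 10 genes in the 4 libraries (y axis, FPKM on a log scale; 1 point per library, short lines are group means, 2 libraries per group). The sh-LDB1 points lie above the sh-NC points for 8 genes and below them for FOSL1 and EGR1.

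The JUN family was examined first. JUN, the protein that gave the family its name, lies at chr1:58776845-58784048, minus strand (GRCh38), and has no intron in its canonical transcript. The sh-NC libraries gave 16.5 and 15.2 FPKM, and the sh-LDB1 libraries 101.4 and 102.2 FPKM. Both knockdown libraries were thus far above both controls and close to each other. The mean rose from 15.9 ± 0.922 to 101.8 ± 0.585 FPKM (SD, n = 2 each), a ratio of 6.42. The log2 difference was 2.61 (standard error, SE, 0.0536, adjusted p = 6.77e-05 in limma), which ranked 70 from the largest rise among the 13300 genes. Between 794 and 5750 recovered reads lay behind each value.

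JUND, a family member held in many cells without a stimulus, lies at chr19:18279694-18281622, minus strand, also as a single exon. It was the most abundant of the 10 genes in both groups. The controls stood at 93.8 and 114.5 FPKM, and the knockdown libraries at 314.7 and 328.2 FPKM. The control libraries lay apart from each other, but the gap to the knockdown libraries was wider. The mean rose from 104.2 ± 14.6 to 321.4 ± 9.52 FPKM (SD, n = 2 each), 3.09 times the control level. The log2 difference was 1.62 (SE 0.105, adjusted p = 0.000359 in limma).

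JUNB, which often opposes JUN in growth control, lies at chr19:12791486-12793315, plus strand, likewise a single exon. The sh-NC libraries gave 38.3 and 35.1 FPKM, compared with 69.6 and 70.4 FPKM in sh-LDB1. The groups did not overlap, and the ratio of the means was 1.91. The log2 difference was 0.92 (SE 0.0553, adjusted p = 0.000303 in limma), so JUNB was higher but fell short of the fold threshold. It passed that threshold when the libraries were scaled by summed FPKM, with a log2 difference of 1.08, and by the median of ratios. Its exon shares 259 bases with HOOK2 on the opposite strand, which was at 5.39 to 7.85 FPKM. Whether counting used the strand is not given in the sources used here, so reads of the shared bases cannot be assigned.

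The JUN family genes also share a structure. Of 10115 protein-coding genes tested, 2.23% have a canonical transcript of 1 exon, and JUN, JUNB and JUND are all of this kind. EGR1 has 2 exons, MAFF 3 and the other 5 genes 4.

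In the FOS family the members moved in different directions. FOS, the classic immediate early gene, lies at chr14:75278826-75282230, plus strand. It was low in both groups, with 1.24 and 1.21 FPKM in the controls and 4.01 and 3.96 FPKM after the knockdown. The replicates were almost equal. The mean rose from 1.23 ± 0.0182 to 3.98 ± 0.0354 FPKM (SD, n = 2 each), a ratio of 3.25, and the log2 difference was 1.16 (SE 0.0842, adjusted p = 0.000482 in limma). These values rested on 58 to 208 reads per library.

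FOSB, a close relative of FOS, lies at chr19:45467995-45475179, plus strand, and was the lowest of the 10 genes. Its level was 0.490 and 0.391 FPKM in the controls, or 44 and 32 reads, and 2.51 and 2.57 FPKM after the knockdown, or 223 and 216 reads. The ratio of the means was 5.77. The log2 difference of 1.30 (SE 0.124, adjusted p = 0.00105 in limma) understates this ratio because 1 FPKM was added before the logarithm. With voom on the recovered reads it was 2.51. FOSB passed the filter only through its level in sh-LDB1, so its adjusted p and its call are descriptions only.

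FOSL2, also known as FRA2, lies at chr2:28392448-28417317, plus strand. The controls gave 1.51 and 1.08 FPKM, compared with 8.12 and 7.68 FPKM after the knockdown. The mean rose from 1.30 ± 0.305 to 7.90 ± 0.309 FPKM (SD, n = 2 each), a ratio of 6.10. The log2 difference was 1.96 (SE 0.116, adjusted p = 0.000287 in limma), the second largest of the 10 genes after JUN.

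FOSL1, also known as FRA1, lies at chr11:65892049-65900573, minus strand, and moved in the opposite direction to the rest of its family. The sh-NC libraries gave 16.8 and 14.7 FPKM, and the sh-LDB1 libraries 6.55 and 8.41 FPKM. Both knockdown libraries were below both controls. The mean went from 15.7 ± 1.46 to 7.48 ± 1.31 FPKM (SD, n = 2 each), a ratio of 0.475. The log2 difference was -0.99 (SE 0.131, adjusted p = 0.00294 in limma), just short of the fold threshold. It passed that threshold without sh-NC replicate 2 (-1.08) and without sh-LDB1 replicate 2 (-1.15), and also at a pseudocount of 0.1 (-1.07).

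**Figure D3:**
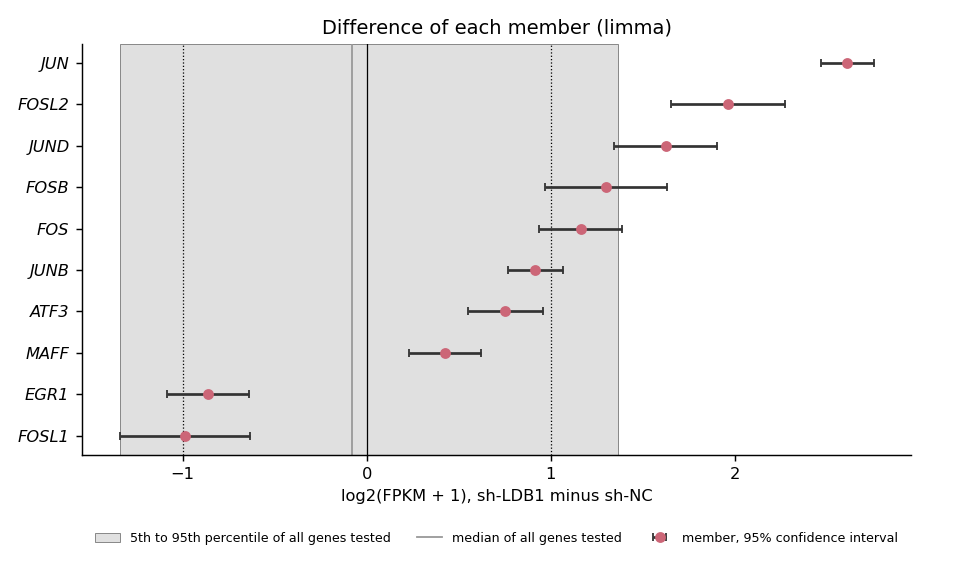
Difference of each gene between sh-LDB1 and sh-NC (x axis, log2 of FPKM + 1, with 95% confidence intervals from limma, 2 libraries per group; dotted lines are the fold thresholds). JUN, FOSL2 and JUND lie above the 95th percentile of all genes tested, 1.37, and EGR1 and FOSL1 lie below 0 but above the 5th percentile, -1.34.

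The FPKM of a family can be summed, since the unit is per length. The 4 FOS genes together came to 20.0 and 17.4 FPKM in the controls, against 21.2 and 22.6 FPKM after the knockdown, a ratio of the means of 1.17. Within that sum, FOSL1 made up 83.8% and 84.6% in the controls but 30.9% and 37.2% after the knockdown. The share of FOSL2 was 7.55% and 6.21% in the controls, against 38.3% and 34.0% after the knockdown. FOS took 6.20% and 6.99% in the controls, against 18.9% and 17.5%. FOSB took 2.45% and 2.25%, and then 11.8% and 11.4%. FOSL1 was thus the leading FOS family transcript in sh-NC, while in sh-LDB1 FOSL1 and FOSL2 were at overlapping levels.

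The JUN family sum behaved differently. It was 148.6 and 164.9 FPKM in the controls, against 485.7 and 500.8 FPKM after the knockdown, a ratio of 3.15. JUND held the largest share in every library, 63.1% and 69.5% in the controls and 64.8% and 65.5% after the knockdown, so its share overlapped between the groups. JUN went from 11.1% and 9.23% to 20.9% and 20.4%, and JUNB from 25.8% and 21.3% to 14.3% and 14.1%. JUN family transcripts exceeded FOS family transcripts 7.43 and 9.48 times in the controls, against 22.9 and 22.1 times after the knockdown. Shares and this ratio do not depend on how the libraries are scaled. They do depend on gene length. The length behind the deposited FPKM was 3238 bases for FOS, against 2104 bases in its canonical transcript. With canonical lengths the FOSL1 share was 81.7% ± 0.351 in sh-NC and 31.1% ± 4.14 in sh-LDB1 (SD, n = 2 each).

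**Figure D4:**
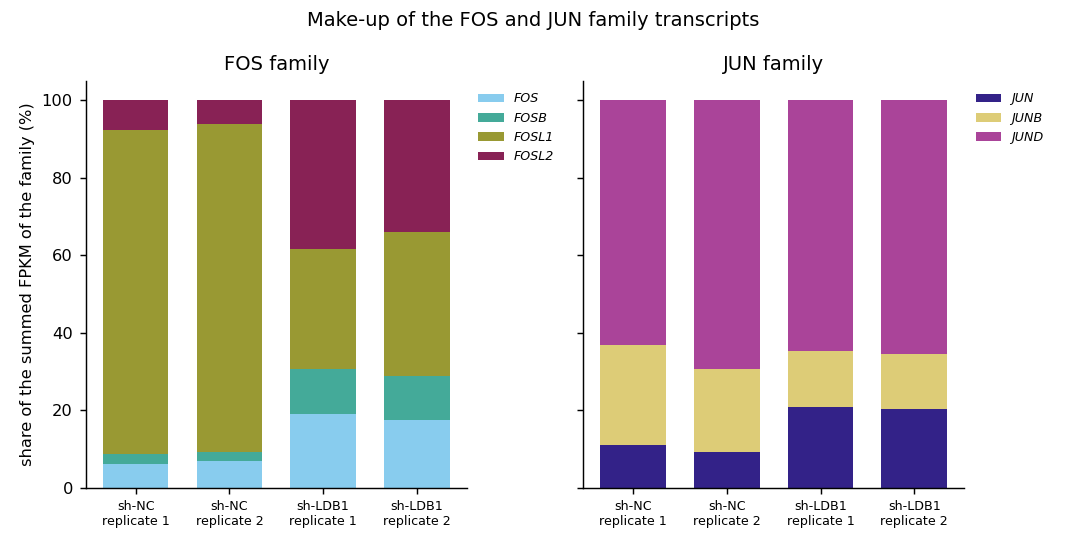
Share of each gene in the summed FPKM of its family (y axis, percent; 1 bar per library). In the FOS family FOSL1 fills 83.8% and 84.6% of the sh-NC bars and 30.9% and 37.2% of the sh-LDB1 bars, and in the JUN family JUND fills the largest part of all 4 bars.

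The other bZIP members were then compared. ATF3, a stress-induced protein that pairs with JUN and can act as a repressor, lies at chr1:212565334-212620777, plus strand. The controls gave 8.57 and 7.45 FPKM, and the knockdown libraries 14.2 and 14.1 FPKM. The ratio of the means was 1.77, and the log2 difference was 0.75 (SE 0.0763, adjusted p = 0.00126 in limma). It was higher, but under the fold threshold.

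MAFF, a small MAF protein that has no activation domain of its own, lies at chr22:38200767-38216507, plus strand. The controls gave 2.59 and 2.60 FPKM, and the knockdown libraries 3.76 and 3.88 FPKM, the smallest change of the 10 genes. The log2 difference was 0.42 (SE 0.0723, adjusted p = 0.00652 in limma). Without sh-LDB1 replicate 2 it was 0.41 and no longer passed an adjusted p below 0.05. Treat and the fits without 1 library aside, its adjusted p in limma ran from 0.000357 with voom to 0.0215 with no filter on low values. MAFF was not tested at a mean of at least 5 FPKM. MAFF shares 326 exonic bases with PLA2G6 on the opposite strand, which gave 4.12 and 3.77 FPKM in the controls, against 2.07 and 2.33 FPKM after the knockdown.

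EGR1, a zinc finger protein and the only one of the 10 outside the bZIP class, lies at chr5:138465479-138469303, plus strand. The controls gave 19.8 and 18.4 FPKM, and the knockdown libraries 9.35 and 10.8 FPKM. Both knockdown libraries were lower than both controls. The mean went from 19.1 ± 0.946 to 10.1 ± 1.01 FPKM (SD, n = 2 each), a ratio of 0.527, and the log2 difference was -0.86 (SE 0.0835, adjusted p = 0.00110 in limma). This decrease was under the fold threshold. Its paralogs EGR2, EGR3 and EGR4 were at most at 0.0919 FPKM in any library and were not tested.

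The order of the levels changed between the groups. In sh-NC it ran from JUND over JUNB, EGR1, JUN, FOSL1, ATF3, MAFF, FOSL2 and FOS to FOSB. The ranges of JUN and FOSL1 overlapped there, and so did those of FOSL2 and FOS. In sh-LDB1 it ran from JUND over JUN, JUNB, ATF3, EGR1, FOSL2, FOSL1, FOS and MAFF to FOSB, and only FOSL2 and FOSL1 overlapped among neighbours. The nearest neighbours of JUND in pattern, by Euclidean distance over the log2 values of the 4 libraries after centring, were DPEP2 (0.0511), KIAA0040 (0.0815) and LPCAT1 (0.0881). With 4 libraries in 2 groups, this measure follows mostly the group difference.

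The messages of immediate early genes are known to be short-lived, and AU-rich elements in the 3′ UTR, with the core ATTTA, take part in that. FOSL2 held 9 copies of ATTTA in its canonical 3′ UTR, FOS 5, MAFF 4, and JUN, FOSB and ATF3 3 each, while JUNB held 2 and JUND, FOSL1 and EGR1 held 1. Per kilobase, FOS had 6.20 copies and EGR1 0.818. Over 10085 genes tested with a 3′ UTR, the median was 1.61 copies per kilobase and 71.1% had at least 1. The longer nonamer form of the element occurred in FOS, FOSL2 and MAFF, and in 8.96% of those genes. Among the 10 genes, the copies per kilobase of the 5 called higher ran from 1.34 in JUND to 6.20 in FOS. JUNB, ATF3 and MAFF, which were higher but not called, had 4.0, 2.459 and 2.455, more than every called gene except FOS. FOSL1 and EGR1, the pair that was lower, had 1.20 and 0.818. Whether the element had a part in these changes was not tested.

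Genes around AP-1 were examined as lists. Of 29 other immediate early genes, 26 had a value and 18 were tested. Of these, 11 were called higher, against 9.5% of all genes tested, 7 were not called, and the median log2 difference was 1.26. In this list 4 genes passed the filter only through their level in sh-LDB1, and 2 of them, IER5L and ARC, are among the 11, so the count and the median are descriptions only. IER3, an early response gene tied to cell survival, rose from 10.7 ± 1.92 to 114.8 ± 6.38 FPKM (SD, n = 2 each), a log2 difference of 3.32. ZFP36, the tristetraprolin that binds AU-rich messages, rose from 8.30 ± 0.522 to 33.2 ± 0.464 FPKM, and DUSP1, a phosphatase of the MAP kinases, from 12.5 ± 2.04 to 47.4 ± 0.518 FPKM. CSRNP1, a nuclear protein of the early response, rose by a log2 difference of 1.86. Not every immediate early gene moved in this way. IER2 ranged from 24.3 to 29.0 FPKM in the controls and from 26.2 to 27.7 FPKM after the knockdown, and MCL1 differed by 0.09 on the log2 scale.

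Of 24 AP-1 target genes, 22 had a value and 13 were tested, with 9 called higher, 2 called lower and a median log2 difference of 1.45, against 9.5% and 10.3% called over all genes. Here too, 4 of the 9 called higher passed the filter only through sh-LDB1, so these numbers are descriptions. CXCL8, the chemokine interleukin 8, gave 0.380 and 0.417 FPKM in the controls, against 14.1 and 14.4 FPKM after the knockdown. VIM, the intermediate filament vimentin, rose from 32.9 ± 1.06 to 212.8 ± 9.80 FPKM (SD, n = 2 each), and ICAM1, an adhesion molecule, from 9.19 ± 0.172 to 35.5 ± 0.307 FPKM. The pair called lower, named after their values were seen, were CCND1 (cyclin D1; log2 difference -1.47) and GSTP1 (a glutathione transferase; -1.34). MMP1, MMP9 and PTGS2, all textbook AP-1 targets, stayed at or below 0.253 FPKM and were not tested.

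Of 24 bZIP partners, 22 had a value and 16 were tested. NFE2, the erythroid partner of the small MAF proteins, was the only call, where 10.3% of all genes were called lower, and fell from 158.1 ± 6.82 to 20.6 ± 0.501 FPKM (SD, n = 2 each), a log2 difference of -2.88. The median of this list was 0.03. Of the other small MAF genes, MAFK gave 11.0 and 9.17 FPKM in the controls, against 15.2 and 15.7 FPKM after the knockdown, a log2 difference of 0.57 (SE 0.0942, adjusted p = 0.00585 in limma). MAFG gave 35.4 and 32.2 FPKM, against 29.1 and 29.0 FPKM, a log2 difference of -0.21 (adjusted p = 0.0318 in limma). BATF, BATF2, BATF3 and JDP2, which can replace FOS in the pair, were under the filter.

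Of 31 kinases upstream of AP-1, 30 had a value and 27 were tested, and the median log2 difference was 0.06. At adjusted p alone 9 were higher and 9 lower, shares near the 29.9% and 37.4% of all genes tested. Past the fold threshold 1 was higher and 2 were lower, against 9.5% and 10.3% of all genes. MAPK13, the delta form of p38, rose from 1.08 ± 0.0691 to 15.6 ± 0.0862 FPKM (SD, n = 2 each), 14.5 times the control level. MAPK12, the gamma form, fell from 9.39 ± 0.504 to 3.02 ± 0.0802 FPKM. MAPK9, the kinase JNK2, named after its values were seen, fell by 1.29 on the log2 scale.

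Of 14 factors that switch on immediate early promoters, 13 were tested, and the median log2 difference was 0.30. At adjusted p alone 8 were higher and 2 lower, against 29.9% and 37.4% of all genes tested. The 1 call, named after its values were seen, was CRTC1, a coactivator of CREB, with a log2 difference of 1.15, and 1 of 13 is near the 9.5% of all genes called higher. SRF, which binds the CArG box, gave 19.2 and 18.2 FPKM in the controls, against 14.8 and 13.9 FPKM after the knockdown, a log2 difference of -0.36 (limma, adjusted p = 0.00531). ELK1, its partner, differed by 0.10 (limma, adjusted p = 0.0896).

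Of 19 brakes on AP-1 and EGR1, 15 were tested and 3 were called higher, against 9.5% of all genes tested, with a list median of 0.30. DUSP5, the nuclear phosphatase of ERK, rose from 1.55 ± 0.213 to 8.55 ± 0.471 FPKM (SD, n = 2 each). SPRY4, an inhibitor of signalling through RAS, rose from 3.19 ± 0.272 to 11.2 ± 0.212 FPKM. DUSP8, a phosphatase of JNK and p38 named after its values were seen, rose by a log2 difference of 1.61. NAB2, which binds EGR1 and represses its targets, differed by 0.98 (limma, adjusted p = 0.00192), just under the fold threshold.

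**Figure D5:**
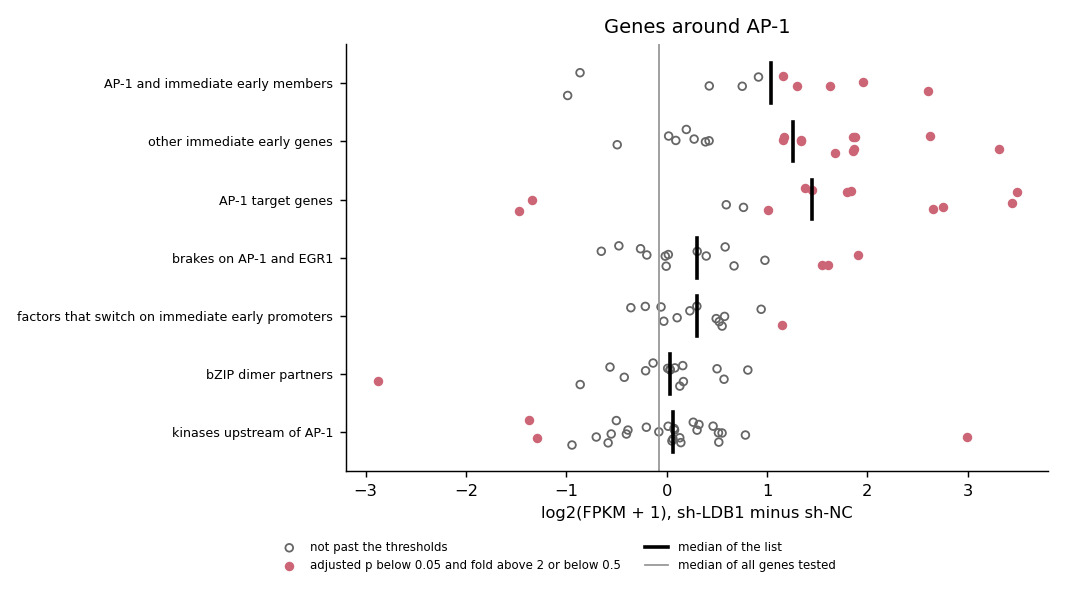
Log2 difference of each tested gene on 7 lists (x axis, sh-LDB1 minus sh-NC on the log2(FPKM + 1) scale; filled points passed both thresholds, black bars are list medians, the grey line is the median of all genes tested; vertical scatter within a list has no meaning). The medians of the 10 genes, the other immediate early genes and the AP-1 targets are 1.04, 1.26 and 1.45, while those of the other 4 lists lie between 0.03 and 0.30.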

How the data were processed

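RNA-seq was measured in 4 libraries, 2 per group, grouped and numbered by their labels. The deposited table held FPKM for 28412 genes, with 0 columns of no sample. The authors filtered the reads and mapped them, with HISAT2 2.0.5 and hg38 per the submitters' processing notes. Which annotation and counting tool were used, and whether strand was, is not given in the sources used here.

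Levels were taken as log2(FPKM + 1), which understates changes of low genes. The 13300 genes averaging 1 FPKM or more were tested with limma 3.58.1 in R 4.3.3 (eBayes with trend, all 4 libraries, no replicate block, Benjamini-Hochberg adjustment). The design had allowed for counts. The values 0.05, 2 and 0.5 are those of the study, which names no adjustment, while here the p was adjusted and the fold taken on this log scale. FPKM were turned back into whole reads with gene lengths (tolerance 0.0001 reads), which gave reads for 28409 genes. The fitted length was within 10% of GENCODE 44 for 84.1% of genes, and totals rest on these lengths. The steps were tested on simulated data. Coordinates, exons and UTRs are from GENCODE 44 on GRCh38, and promoters from RefSeq.

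The genes and lists were chosen with earlier results of these data known. Besides the 10 genes and LDB1, the text names by rule up to 4 called genes per list with the largest absolute difference and a mean of at least 5 FPKM, and the 3 genes nearest to JUND. Other names were chosen after their values were seen. A gene that the rule selects is not reported here. Alternatives covered pseudocount, filter, scaling, replicate block, trend, voom, treat and leaving out each library. Python 3.11.15 made the tables.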

Additional observations from a re-analysis of the deposited data

How the results depend on the processing

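None of the 10 genes changed sign under any alternative run. JUN, JUND and FOSL2 were called higher under all alternatives that tested them, and FOS and FOSB under all of those but treat. The calls of FOSB are descriptions only, since it passed the filter only through sh-LDB1. At a mean of at least 5 FPKM, 710 genes were called higher and 2 of the 10, because FOS, FOSB, FOSL2 and MAFF were then not tested. With treat against a fold of 2, 568 genes were called higher and 581 lower, and 3 of the 10 were higher. With adjusted p alone, 8 of the 10 were higher and 2 lower. FOSL1 alone among the 10 was called lower at pseudocounts of 0.1 and 0.01 and with voom, 1 gene each, and leaving out each library in turn gave 0 to 1. The pseudocounts and voom also gave 2 bZIP partners lower, 2 kinases higher, 2 promoter factors higher, and 5 brakes higher with 1 lower. A mean of at least 5 FPKM gave 1 kinase lower and 0 promoter factors higher. Both other scalings gave 2 promoter factors higher. Leaving out libraries gave 1 to 2 bZIP partners lower and 1 to 2 promoter factors higher, with 2 bZIP partners without sh-NC replicate 2 and 2 promoter factors without sh-LDB1 replicate 1. The cause of these shifts was not tested. Treat aside, MAFF alone among the genes named by rule lost an adjusted p below 0.05, without sh-LDB1 replicate 2.

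Scaling moved the median of all genes by 0.14 (summed FPKM) and 0.10 (median of ratios) on the log2 scale. The split of 1264 higher and 1371 lower genes then became 1602 and 1001, or 1507 and 1093, and JUNB was also called. The deviations of same-numbered libraries correlated at 0.0196 over 13300 genes, so no pairing by replicate number was visible. This value cannot show whether the libraries were prepared in pairs. With the replicate block, 1274 genes were called higher and 1386 lower, and the 10 genes gave the same 5 and 0. The shares with canonical lengths were an alternative chosen after seeing the data. With 2 libraries per group the spread is poorly known, and FOSB rests on 44 and 32 reads in sh-NC.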
